A study of Mus musculus with 16 samples.

Results

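The 4 members of the Ndrg (N-myc downstream regulated gene) family, Ndrg1, Ndrg2, Ndrg3 and Ndrg4, were followed by sequencing full-length RNA copies of mouse brain (Iso-seq, PacBio). They were chosen by gene name, out of 23724 genes with at least 1 read, with earlier results on their levels and isoforms known, so their differences between groups are given as a description, and whether they passed a test is given only beside the share of all genes that passed. Samples came from the cortex and striatum of male mice of 3 months of age, with 4 R6/2 and 4 non-transgenic (NT) samples per region and 16 in all. R6/2 mice carry a transgene for a mutant exon 1 fragment of human huntingtin, the protein altered in Huntington's disease (HD), expressed under the human HTT promoter, and NT mice lack it. In all samples RNA with a 5' monophosphate was digested and polyadenylated RNA was read as full-length cDNA, so that a read shows which exons were joined in 1 molecule. Counts are reads per isoform, and a level in CPM (read count scaled to a common library size) is a gene's reads relative to the normalized library. Whole tissue was sequenced, in which fewer cells of a type and less RNA per cell cannot be told apart.

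NDRG proteins share an alpha/beta hydrolase fold without a known catalytic activity and some of them are phosphorylated by the kinases SGK1 and GSK3. NDRG1 is a stress- and hypoxia-responsive protein of oligodendrocytes and Schwann cells, and its loss causes a hereditary demyelinating neuropathy. NDRG2 is widely used as a marker of mature astrocytes. NDRG3 is stabilized under hypoxia by lactate, and NDRG4 is a neuronal and cardiac member of the family.

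All 4 genes are protein-coding in the mm10 annotation. Ndrg1 (ENSMUSG00000005125) lies on the minus strand at chr15:66929318-66969640, Ndrg2 (ENSMUSG00000004558) on the minus strand at chr14:51905271-51914158, Ndrg3 (ENSMUSG00000027634) on the minus strand at chr2:156927345-156992056 and Ndrg4 (ENSMUSG00000036564) on the plus strand at chr8:95676980-95715119. Of the 1172 isoforms listed for them, 941 had at least 1 read in at least 1 sample. Complete reads are those of known isoforms and of the unannotated classes NIC (new combinations of known splice sites) and NNC (at least 1 new splice site), and 11 isoforms made up at least 5% of a gene's complete reads in at least 1 of the 4 groups. Of these, 1 belongs to Ndrg1, 4 to Ndrg2, 2 to Ndrg3 and 4 to Ndrg4.

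Ndrg2, Ndrg3 and Ndrg4 each have a short coding exon that tells apart main known isoforms, and Ndrg4 has a choice of first exons as well. The exons are shown in capitals with 20 bases on either side in lower case, joined as in the spliced transcript and read 5' to 3' on the gene's strand. The Ndrg2 exon, exon 3 of ENSMUST00000004673, is 42 nt long and lies at chr14:51911086-51911127. The Ndrg3 exon, exon 16 of ENSMUST00000069600, is 39 nt long and lies at chr2:156929932-156929970. The Ndrg4 exon, exon 14 of ENSMUST00000073139, is also 39 nt long and lies at chr8:95712325-95712363. The exons of Ndrg3 and Ndrg4 have the same length, and 18 of their 39 bases are identical.
Ndrg2 exon: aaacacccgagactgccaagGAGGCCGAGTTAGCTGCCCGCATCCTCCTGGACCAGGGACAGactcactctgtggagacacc
Ndrg3 exon: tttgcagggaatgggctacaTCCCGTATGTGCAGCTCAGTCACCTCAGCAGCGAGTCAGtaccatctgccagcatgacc
Ndrg4 exon: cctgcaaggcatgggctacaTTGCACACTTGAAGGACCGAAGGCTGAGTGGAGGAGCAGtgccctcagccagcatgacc

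The distal Ndrg4 isoform ENSMUST00000041318 starts 24952 bp before the main isoform ENSMUST00000073139. It codes for 177 nt in its first 3 exons that the other isoforms lack, where the proximal isoforms have 21 coding nt in their first exon. These coding starts, from the start codon, are shown in capitals, and the first 20 bases of the exon they share follow in lower case. The distal isoform codes for 404 residues and the main isoform for 352.
Ndrg4 distal: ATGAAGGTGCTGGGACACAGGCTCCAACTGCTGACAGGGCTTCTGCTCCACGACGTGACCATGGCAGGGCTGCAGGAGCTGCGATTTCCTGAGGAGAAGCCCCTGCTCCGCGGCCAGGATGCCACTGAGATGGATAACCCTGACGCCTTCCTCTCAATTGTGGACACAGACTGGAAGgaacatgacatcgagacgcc
Ndrg4 proximal: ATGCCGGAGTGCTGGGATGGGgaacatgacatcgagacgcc

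Because the share of these starts differed between groups, motifs were counted on both strands of the 250 bases before the nearest RefSeq start (GRCm38.p6), chr8:95678022-95678271 for the distal and chr8:95702806-95703055 for the proximal start. Both windows reach past the first base of the isoform in GENCODE, 95678085 and 95703037, so they are not printed. Most of the distal window lies past 95678085, so its motif counts and GC content include much sequence after that base. GGGCGG occurred 2 times in the distal and not in the proximal window, and 32.7% of all 32817 promoter windows of this length hold it. CCAAT occurred 1 time in the distal and 3 times in the proximal window, where a pair of matches on opposite strands overlaps, and 33.8% of windows hold it. TATAAA, added to the search after the windows were seen, was found in 12.4% of windows. It begins 30 bases before the proximal RefSeq start, 95703056, and thus nearer to the isoform's first base in GENCODE, 95703037. CACGTG was in neither window, which also lacked ACGTG on either strand. The window before another RefSeq start farther upstream, chr8:95677513-95677762, held CACGTG 1 time and ACGTG 2 times. Of all windows, 6.02% and 16.6% hold these motifs. The motif TGACGTCA was absent from the distal and the proximal window. The GC content was 73.6% in the distal and 62% in the proximal window, against a median of 52.4% over all windows.

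Cortical libraries held 252885 to 808814 reads and striatal libraries 317050 to 1496196. In the striatum, 4 samples (NT 1, NT 2, R6/2 2 and R6/2 3) have 2 sets of counts, taken here as 2 runs of 1 sample and summed, and the other 4 have 1. The summed libraries stood apart, with longer isoforms (a mean of 2141 to 2225 nt per read, against 1618 to 1885 nt) and fewer mitochondrial reads (0.408% to 0.851%, against 1.41% to 3.27%). Summed levels of 10 striatal projection neuron markers were 10305 to 14073 CPM in NT striatum and 414 to 494 CPM in NT cortex. Summed levels of 7 cortical excitatory neuron markers were 122 to 186 CPM in NT cortex and 0 to 46.6 CPM in NT striatum, and 1 striatal library had all 7 at 0. The regions thus carried their own markers, and the lower striatal markers of R6/2 mice, 1951 to 3335 CPM, did not reach the cortical range.

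**Figure D1:**
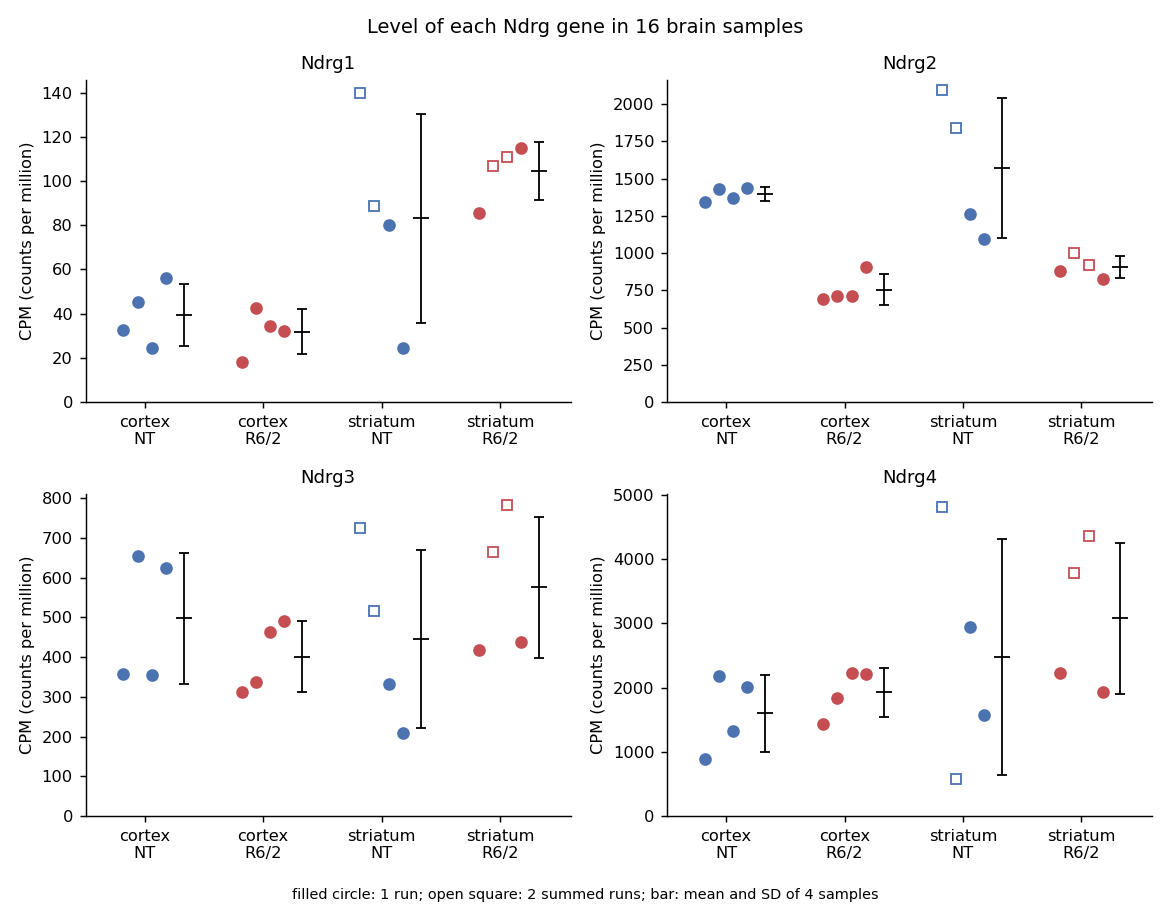
Level of each gene in CPM (y axis) in the 4 groups of 4 samples, with the mean and SD beside the points; circles are samples of 1 run and open squares sums of 2 runs. Ndrg2 lay lower in all R6/2 samples (691 to 1003 CPM) than in all NT samples of the same region (1096 to 2092 CPM), and Ndrg4 fell to 574 CPM in striatal NT sample 2.

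Ndrg2 was lower in R6/2 mice in both regions. In the cortex it stood at 1341, 1431, 1373 and 1440 CPM in NT samples and at 691, 709, 710 and 908 CPM in R6/2 samples. Every R6/2 sample lay below every NT sample, and the NT samples were close together. The means were 1396 ± 47.2 CPM and 754 ± 103 CPM (SD, n = 4), a fitted log2 difference of -0.87 ± 0.18 (SE), or 1.83-fold lower in R6/2 mice. In the striatum Ndrg2 stood at 2092, 1841, 1264 and 1096 CPM in NT samples and at 878, 1003, 923 and 829 CPM in R6/2 samples. The groups again did not overlap, but the NT samples were more spread than in the cortex. The means were 1573 ± 470 CPM and 908 ± 73.8 CPM (SD, n = 4), a fitted log2 difference of -0.79 ± 0.25 (SE), or 1.73-fold lower.

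The number of runs moved with the spread of striatal Ndrg2, since the 2 highest NT samples were both sums of 2 runs. Among samples of 2 runs the log2 difference between genotypes was -1.03 and among samples of 1 run -0.46, each from 2 samples per genotype. In a fit that also had a term for runs it was -0.76 ± 0.18 (SE). The runs of each of these 4 samples gave 2193 and 1841 RPM (the gene's reads scaled to the reads of the run) in NT 1, 1838 and 1668 in NT 2, 1069 and 1025 in R6/2 2 and 1033 and 890 in R6/2 3. In each run the NT samples lay above the R6/2 samples.

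In the cortex, Ndrg2 was the 1 member of 4 with an adjusted p under 0.05 between genotypes, where 3.23% of all 6128 tested genes passed, and in the striatum none of the 4 passed, where 0.507% of 7694 genes did. Once the fit had a term for runs, 4.32% of striatal genes passed and Ndrg2 was among them. Ndrg2 no longer passed in the cortex without R6/2 sample 2 or without R6/2 sample 3, at log2 differences of -0.84 in both cases. CPM values of the 4 and 4 samples did not overlap for 10.1% of the cortical and 6.07% of the striatal genes tested. The genes were chosen with these contrasts known, and nothing is read from these counts.

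**Figure D2:**
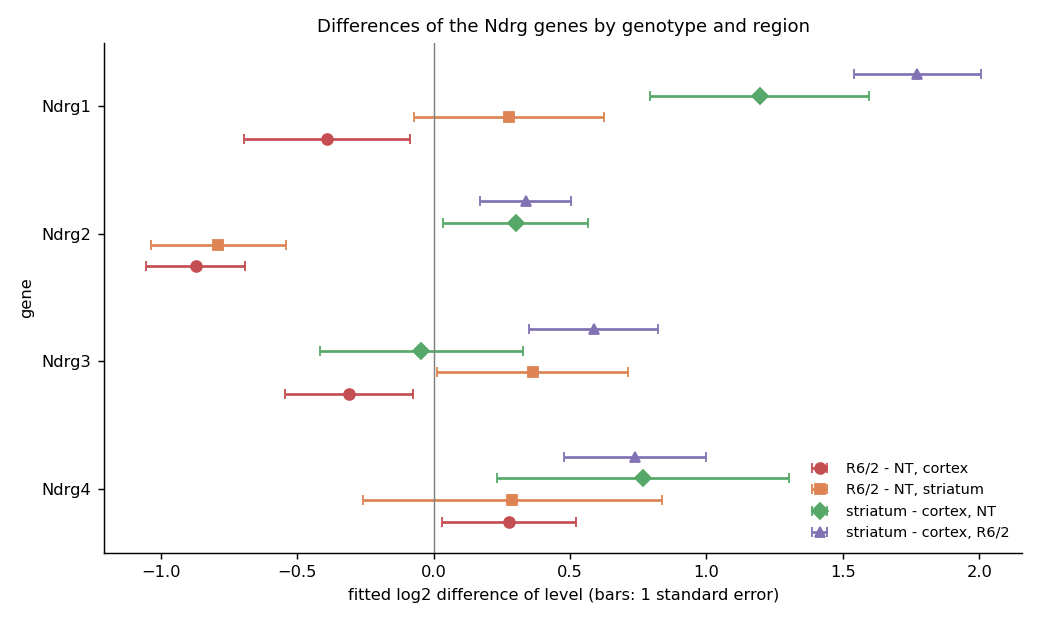
Fitted log2 difference of each gene's level (x axis) with its standard error, for R6/2 against NT in the cortex and the striatum and for striatum against cortex in NT and R6/2 mice. The Ndrg2 differences between genotypes, -0.87 and -0.79, lie to the left of 0, and those of Ndrg1 between regions, 1.20 and 1.77, lie farthest to the right.

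Summed astrocyte markers were lower in R6/2 samples, in the striatum without overlap only when Aldoc is included. The summed level of 12 astrocyte markers was 2620 to 3900 CPM in NT and 1623 to 1995 CPM in R6/2 cortex, and 2561 to 4162 CPM in NT and 1904 to 2144 CPM in R6/2 striatum, without overlap in either region. Much of that sum was Aldoc, an astrocytic glycolytic enzyme, at 2102 ± 544 CPM in NT and 859 ± 169 CPM in R6/2 cortex and at 2123 ± 751 CPM and 931 ± 137 CPM in the striatum (SD, n = 4). Without Aldoc, a sum added after the data were seen, the other 11 markers were at 1152 to 1482 CPM in NT and 890 to 961 CPM in R6/2 cortex, still without overlap. In the striatum they were at 1083 to 1355 CPM and 1039 to 1131 CPM, which overlap. Of the 12 markers, 10 were tested in the cortex, 9 of them with a negative difference and 2 with an adjusted p under 0.05 (edgeR quasi-likelihood test), Aldoc at -1.28 ± 0.22 (log2, SE) and Gjb6, a gap junction subunit, at -0.76 ± 0.20. The median difference of the tested markers was -0.71 in the cortex, against 0.01 for all genes, and -0.33 in the striatum, against -0.01, where 8 of 11 were negative and none passed. In the fit with a term for runs, Aldoc alone passed in the striatum. Aqp4, the water channel of astrocyte endfeet, and S100b were near 0 or positive in the cortex, at -0.08 ± 0.19 and 0.16 ± 0.18. The part of astrocyte content in the Ndrg2 difference was not tested. Summed neuronal markers were also lower in R6/2 cortex, at 5986 to 7173 CPM against 8078 to 9488 CPM. The highest of these 8 markers, Nefl, was at 3105 ± 511 CPM in NT and 1636 ± 239 CPM in R6/2 cortex (SD, n = 4), and 1 of 8, Nefl, passed. Their median log2 difference there was -0.14, with 6 negative and 2 positive. Summed oligodendrocyte, microglial and endothelial markers overlapped between genotypes in both regions. The 12 oligodendrocyte markers had a median log2 difference of -0.40 in either region, with 11 negative for cortex and 10 for striatum. Of these, 1 passed as lower in cortex and none in striatum, and 4 passed in the striatal fit with a term for runs.

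**Figure D3:**
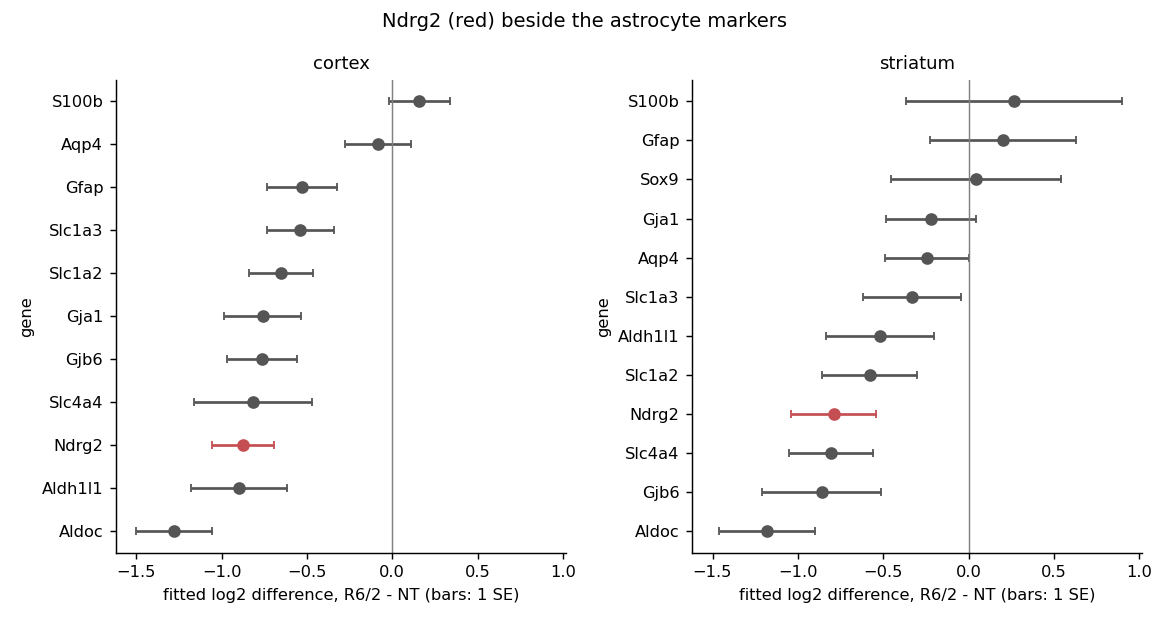
Fitted log2 difference between R6/2 and NT samples (x axis, with SE) of Ndrg2, in red, and of the tested astrocyte markers, ordered by value, in the cortex and the striatum. Ndrg2, at -0.87 and -0.79, lies among the markers with the more negative differences, and Aldoc is the lowest in both regions.

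Ndrg2 was read as 4 main isoforms, which form 2 pairs by listed length. ENSMUST00000111632 (15 exons) skips and ENSMUST00000004673 (16 exons) includes the 42-nt exon shown above. The unannotated TALONT000298919 (15 exons, NNC) and TALONT000298924 (16 exons, NIC) are each 117 nt shorter in listed length than those, and differ from each other by 42 nt. The exons of these unannotated isoforms were not compared, so whether they differ by the same exon is not known. Mean shares of complete Ndrg2 reads in NT cortex were 41.6 ± 3.69% for ENSMUST00000111632, 30.2 ± 2.80% for TALONT000298919, 12.3 ± 0.588% for ENSMUST00000004673 and 6.71 ± 2.59% for TALONT000298924 (SD, n = 4). By mean share an unannotated transcript was therefore the second most read form of the gene, and this order of means held in all 4 groups. TALONT000298919 was the most read form in striatal NT sample 1 (40.5% against 39.4% for ENSMUST00000111632) and NT sample 3 (41.7% against 41.2%). In every other sample ENSMUST00000111632 was the most read.

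The lower level of Ndrg2 in R6/2 cortex was seen in each of the 4 isoforms. Mean levels were lower without overlap between the genotypes, 1.52-fold for ENSMUST00000111632, 1.96-fold for TALONT000298919, 1.87-fold for ENSMUST00000004673 and 2.28-fold for TALONT000298924. In the striatum the mean levels of all 4 were lower too, by between 1.32-fold and 2.01-fold, but the samples of the genotypes overlapped for each. Shares changed less than levels. That of ENSMUST00000111632 was 36.4%, 41.6%, 44.5% and 43.9% in NT cortex and 50.8%, 45.5%, 48.0% and 47.6% in R6/2 cortex. Its groups did not overlap there but did in the striatum, where the means were 44.8 ± 5.46% and 46.4 ± 1.68%.

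The 42-nt exon was included in a minority of Ndrg2 reads, counted over the known pair. Inclusion was 22.9 ± 1.91% in NT cortex, 19.3 ± 2.33% in R6/2 cortex, 15.0 ± 2.21% in NT striatum and 18.4 ± 3.41% in R6/2 striatum (SD, n = 4). In NT mice the cortical samples, 20.9% to 25.5%, all lay above the striatal samples, 12.4% to 16.8%. Between genotypes the samples overlapped in both regions, and in R6/2 mice the regions overlapped as well.

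Ndrg4 differed between genotypes in its isoforms. Its level was 893, 2177, 1320 and 2013 CPM in NT and 1429, 1832, 2228 and 2211 CPM in R6/2 cortex, a fitted log2 difference of 0.28 ± 0.25 (SE) with overlapping groups. In the striatum it was 4808, 574, 2943 and 1576 CPM in NT and 2235, 3779, 4367 and 1940 CPM in R6/2 samples, a difference of 0.29 ± 0.55. Striatal NT sample 2, the deepest library of all, was the lowest of the 16 for Ndrg4. Both of its runs were low, at 481 and 617 RPM, against 3268 to 4979 in the runs of the other 3 samples with 2 runs. Without this sample the difference between genotypes was -0.04 ± 0.41, so its sign rests on that library.

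The distal start of Ndrg4 had a lower share in R6/2 mice in both regions. Of the reads of the 3 coding isoforms, those of the distal isoform ENSMUST00000041318 made up 5.28%, 8.30%, 13.3% and 9.40% in NT cortex and 1.94%, 2.60%, 2.14% and 2.30% in R6/2 cortex. The lowest NT sample was above the highest R6/2 sample, with 14 of 265 reads (Wilson 95% interval 3.17% to 8.67%) against 20 of 770 (1.69% to 3.98%). Such intervals cover counting error only. In the striatum the share was 10.3%, 9.78%, 15.8% and 15.7% in NT and 5.93%, 4.17%, 5.32% and 4.93% in R6/2 samples, again without overlap. The means were 9.06 ± 3.29% and 2.24 ± 0.278% in the cortex and 12.9 ± 3.32% and 5.09 ± 0.737% in the striatum (SD, n = 4).

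Striatal samples of 1 run had the higher distal shares in NT mice, and the difference between genotypes was present at either number of runs. It was -5.28 percentage points among samples of 2 runs and -10.3 points among samples of 1 run, each from 2 samples per genotype. The NT striatal sample with the low Ndrg4 level had a share of 9.78% from 634 reads, near that of NT sample 1. As a level, the distal isoform was at 112 ± 53.4 CPM in NT and 37.4 ± 9.17 CPM in R6/2 cortex, 2.99-fold lower, and at 270 ± 181 CPM and 137 ± 55.2 CPM in the striatum, 1.98-fold lower (SD, n = 4). On this scale the groups overlapped. In the cortex NT sample 1, at 37.8 CPM, lay within the R6/2 range of 23.8 to 43.7 CPM. In the striatum NT sample 4, at 199 CPM, lay within the R6/2 range of 79.8 to 210.2 CPM and NT sample 2, at 48.1 CPM, below it. The main isoform ENSMUST00000073139 had higher means in R6/2 mice, 1430 ± 287 CPM against 921 ± 429 CPM in the cortex and 2456 ± 1005 CPM against 1731 ± 1352 CPM in the striatum, with overlapping samples.

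**Figure D4:**
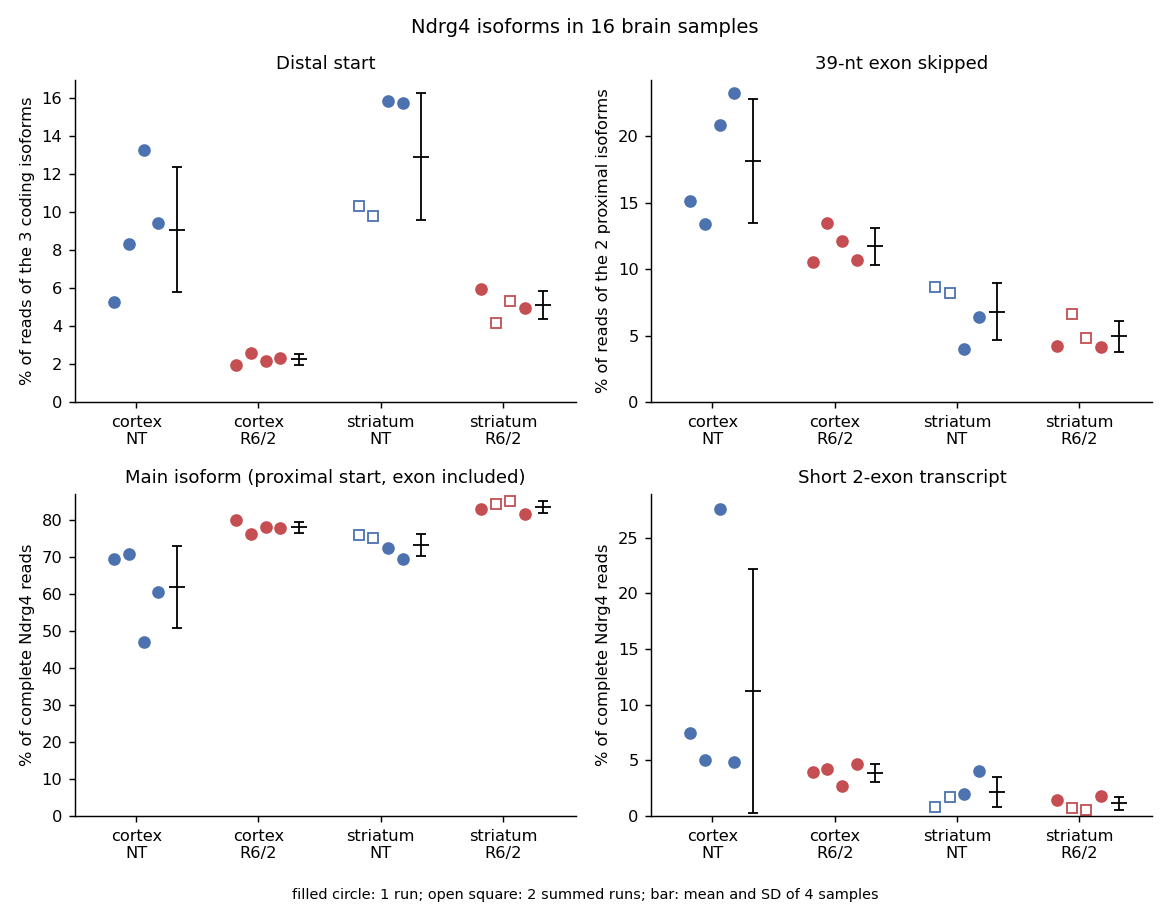
Ndrg4 isoforms in percent of reads (y axes) in the 4 groups of 4 samples, with the mean and SD: the distal start, skipping of the 39-nt exon, the main isoform and the short 2-exon transcript. The distal share is lower in every R6/2 sample than in every NT sample of its region (at most 2.60% against at least 5.28% in the cortex, and 5.93% against 9.78% in the striatum), and skipping of the exon is higher in every cortical than in every striatal sample.

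As a share of all complete Ndrg4 reads, the main isoform held 61.9 ± 10.99% in NT and 78.0 ± 1.49% in R6/2 cortex and 73.3 ± 3.01% and 83.5 ± 1.58% in the striatum (SD, n = 4), without overlap between genotypes in either region. The distal isoform was at 7.30 ± 1.95% and 2.03 ± 0.246% in the cortex and at 11.6 ± 2.79% and 4.71 ± 0.672% in the striatum. ENSMUST00000080666, which starts at the proximal site and skips the 39-nt exon, was at 13.5 ± 3.29% and 10.3 ± 1.23% in the cortex and at 5.40 ± 1.93% and 4.37 ± 1.14% in the striatum, and its genotypes overlapped in both. In the order of distal shares, R6/2 cortex was lowest, R6/2 striatum next, then NT cortex and NT striatum. The neighbours R6/2 striatum and NT cortex overlapped, as did NT cortex and NT striatum.

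Skipping of the 39-nt exon of Ndrg4 was higher in the cortex than in the striatum. Of the reads of the proximal isoforms, 15.1%, 13.4%, 20.8% and 23.3% skipped it in NT cortex and 8.63%, 8.22%, 3.96% and 6.36% in NT striatum. In R6/2 mice skipping was at 10.5%, 13.5%, 12.1% and 10.7% in the cortex and at 4.23%, 6.64%, 4.83% and 4.12% in the striatum. The regions did not overlap in either genotype, while the genotypes overlapped within each region. The means were 18.2 ± 4.66% and 11.7 ± 1.39% in NT and R6/2 cortex and 6.79 ± 2.13% and 4.95 ± 1.17% in the striatum (SD, n = 4).

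The fourth named form of Ndrg4, ENSMUST00000161314, is an annotated 2-exon transcript of 505 nt with a retained intron and no coding sequence, at chr8:95711897-95713215. It made up 7.49%, 5.04%, 27.6% and 4.87% of complete reads in NT cortex and 3.94%, 4.23%, 2.71% and 4.65% in R6/2 cortex. NT sample 3 of the cortex stood far above the rest, with 67 of 243 reads (Wilson 95% interval 22.3% to 33.5%). In the same sample Ndrg4 also had the most reads of the genomic class (reads assigned to the gene without a spliced isoform, left out of its counts), at 960 CPM against 221 to 389 CPM in the other cortical samples. Without it, the difference between genotypes was -1.92 percentage points, against -7.36 with it. In the striatum the form was at 2.15 ± 1.36% in NT and 1.13 ± 0.596% in R6/2 samples (SD, n = 4), with overlap.

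In the test of isoform usage, 1 of the 3 members that could be tested, Ndrg4, had an adjusted p under 0.05 between genotypes in the cortex, where 0.359% of 3060 genes passed, and none had in the striatum, where 0.0675% of 4443 genes passed. The cortical Ndrg4 call held in 10 of 13 alternatives and was lost without NT sample 2 and without R6/2 sample 2 or 3. In the striatum Ndrg4 passed in 0 of 15 alternatives. Between regions, none of the 3 passed in NT mice (0.27% of genes) and Ndrg4 passed in R6/2 mice (0.775%). Shares of the 11 named isoforms did not overlap between genotypes for 5 cortical and 3 striatal comparisons. Of the cortical cases, Ndrg1 ENSMUST00000005256, had 3 to 22 complete reads per sample and is outside the set of isoforms that follows. Over all isoforms of at least 5% of a gene with at least 20 complete reads in every sample, 9.26% and 10.3% did not overlap. Between regions, shares of 3 named isoforms did not overlap in NT and of 4 in R6/2 mice, against 11% and 8.78% of such isoforms. These counts rest on the contrasts by which the genes were chosen, and nothing is read from them.

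**Figure D5:**
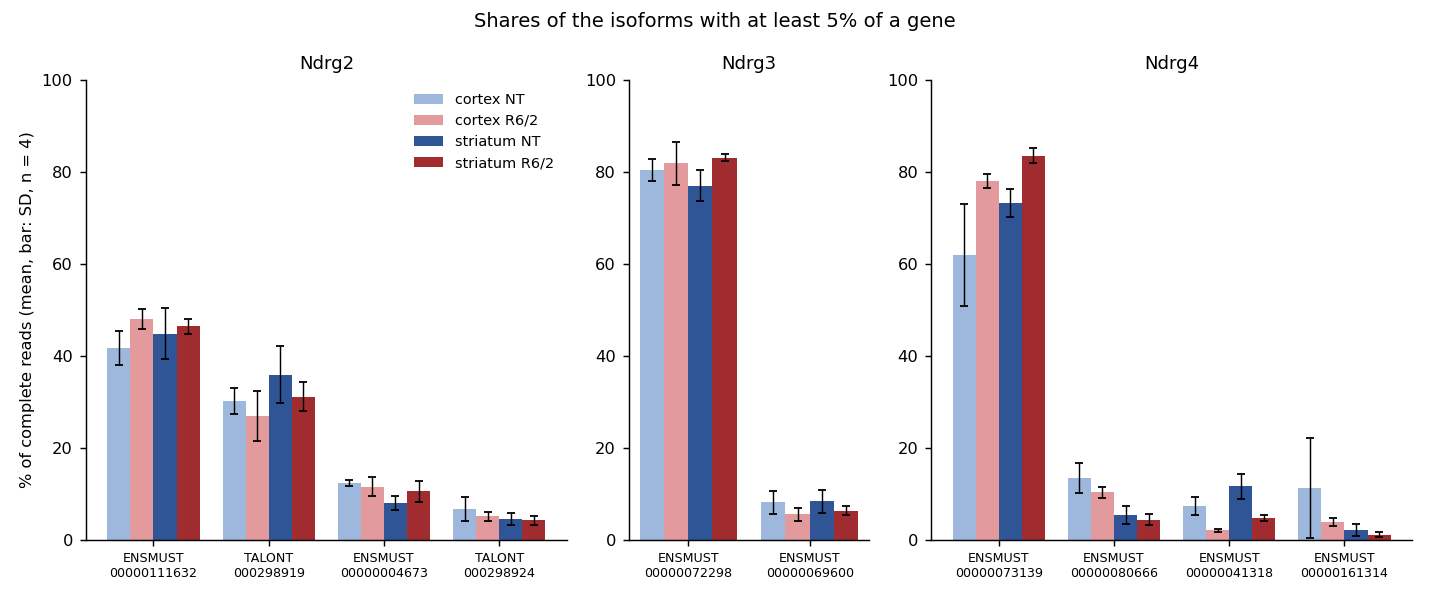
Mean share of complete reads (y axis, with SD, n = 4) of the named isoforms of Ndrg2, Ndrg3 and Ndrg4 in the 4 groups. The main isoforms of Ndrg3 and Ndrg4 hold between 61.9% and 83.5% of reads, whereas the most read Ndrg2 isoform holds 41.6% to 48.0%.

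The levels of Ndrg3 overlapped between genotypes. Its level was 356, 655, 355 and 623 CPM in NT and 313, 337, 463 and 492 CPM in R6/2 cortex, a fitted log2 difference of -0.31 ± 0.23 (SE), and 724, 515, 333 and 209 CPM in NT and 417, 665, 782 and 439 CPM in R6/2 striatum, a difference of 0.36 ± 0.35. In the striatum the level of Ndrg3 moved with the number of runs. All 4 samples of 2 runs were above all 4 samples of 1 run, with a log2 difference of 0.98 (two-sided exact permutation test, p = 0.0286, the smallest that 4 against 4 allows, unadjusted over the 4 genes). The share of all striatal genes that separate in this way was not counted. The summed libraries also stood apart in isoform length and mitochondrial reads, so the separation is not read as particular to Ndrg3. The same difference was 0.69 for Ndrg1 (exact p = 0.171), 0.45 for Ndrg2 (exact p = 0.257) and 0.30 for Ndrg4 (exact p = 0.771). In the fit with a term for runs, Ndrg3 differed between genotypes by 0.41 ± 0.19 (SE).

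Most Ndrg3 reads were of ENSMUST00000072298 (16 exons), which skips the 39-nt exon. It held 80.0%, 78.6%, 79.1% and 84.0% of complete reads in NT and 83.7%, 87.5%, 79.3% and 76.7% in R6/2 cortex, which overlap. In the striatum it held 79.2%, 79.6%, 72.2% and 76.9% in NT and 82.3%, 83.0%, 82.7% and 84.1% in R6/2 samples, without overlap, and the sample at 76.9% had only 39 complete reads. The isoform with the exon, ENSMUST00000069600, held between 5.51 ± 1.39% (R6/2 cortex) and 8.33 ± 2.41% (NT striatum) on average (SD, n = 4). Inclusion of the exon over this pair was 9.21 ± 2.74% in NT and 6.36 ± 1.79% in R6/2 cortex and 9.75 ± 2.83% in NT and 7.09 ± 1.004% in R6/2 striatum, with overlap throughout. The short exon was thus mostly skipped in Ndrg3 and mostly included in Ndrg4.

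Ndrg1 had few reads, and its mean level was higher in the striatum than in the cortex. It had 12, 21, 5 and 29 reads in NT and 10, 21, 25 and 14 in R6/2 cortex, or 32.4, 45.4, 24.3 and 56.0 CPM and 18.3, 42.7, 34.6 and 32.2 CPM. In the striatum it had 111, 114, 51 and 5 reads in NT and 59, 103, 109 and 49 in R6/2 samples, or 140, 88.5, 80.2 and 24.2 CPM and 85.7, 107, 111 and 115 CPM. In R6/2 mice every striatal sample was above every cortical one, a fitted log2 difference of 1.77 ± 0.23 (SE), or 3.42-fold, and Ndrg1 was the 1 member that passed in this comparison, where 14.8% of 6985 genes did. In NT mice the difference was 1.20 ± 0.40, and striatal sample 4, with 5 reads (24.2 CPM), lay just below all NT cortical samples (24.3 to 56.0 CPM). Without that sample the NT difference was 1.41 and passed, and with striatal samples of 1 run only it was 0.54 (1.70 in R6/2 mice). With all samples, none of the 4 members passed there, where 9.46% of 6175 genes did. CPM values did not overlap between regions for 16.8% of tested genes in NT and 20.7% in R6/2 mice, and for 0 and 1 of the members. Between genotypes Ndrg1 differed by -0.39 ± 0.30 in cortical and by 0.27 ± 0.35 in striatal samples, with overlap in both regions.

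Oligodendrocyte markers had the same order between regions. All 12 markers were tested and were higher in the striatum of either genotype (edgeR, adjusted p under 0.05), with a median log2 difference of 1.53 and 1.41, against 0.12 and 0.06 for all genes. Their summed level was 14146 to 32030 CPM in NT striatum and 4085 to 7937 CPM in NT cortex. Over the 16 samples, the gene whose log2 CPM was most like that of Ndrg1, among 2193 genes with at least 50 reads on average, was Olig1, an oligodendrocyte transcription factor, with r = 0.908, followed by Rnf13 (r = 0.892) and Adipor1 (r = 0.883). These points share regions and libraries, and the correlations are a description. The main isoform of Ndrg1, ENSMUST00000005256 (16 exons), held between 89.3% and 98.9% on average in the 4 groups, and the gene had too few other reads for a test of isoform usage.

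Between regions the remaining members differed less. The log2 difference between striatum and cortex was 0.30 ± 0.27 (SE) in NT and 0.34 ± 0.17 in R6/2 mice for Ndrg2, -0.05 ± 0.37 and 0.59 ± 0.24 for Ndrg3 and 0.77 ± 0.54 and 0.74 ± 0.26 for Ndrg4, and the samples of the regions overlapped for each. With striatal samples of 1 run only, these became -0.21 and 0.26 for Ndrg2, -0.83 and 0.17 for Ndrg3 and 0.53 and 0.20 for Ndrg4. The interaction of region and genotype was 0.61 ± 0.50 for Ndrg1, 0.09 ± 0.31 for Ndrg2, 0.68 ± 0.48 for Ndrg3 and 0.05 ± 0.65 for Ndrg4 (log2, SE). None of the 4 passed, where 0.0136% of 7360 genes did.

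The genes most like the other members were found in the same way. For Ndrg2 these were Aldoc (r = 0.915), Gabrd, an extrasynaptic GABA receptor subunit (r = 0.908), and Dbp, a clock-controlled transcription factor (r = 0.905). For Ndrg3 they were Sybu (r = 0.922), Poldip2 (r = 0.910) and Rab10 (r = 0.898), and for Ndrg4 Eno2, the neuronal enolase (r = 0.926), Ppp3r1, the calcineurin regulatory subunit (r = 0.868), and Psap (r = 0.865). All are Pearson correlations of log2 CPM over the same 16 samples.

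Lists of genes known to act on or bind NDRG proteins were examined as well. Of 21 kinases and transcriptional regulators, 8 had enough reads to be tested in the cortex, 5 with a negative and 3 with a positive difference. Where 3.23% of all tested genes passed, 1 of these 8 passed, as lower in R6/2 mice. This was Sgk1, a kinase of NDRG1 and NDRG2, at 120 ± 37.9 CPM in NT and 57.6 ± 13.2 CPM in R6/2 cortex (SD, n = 4), a log2 difference of -1.08 ± 0.25 (adjusted p = 0.0159, edgeR quasi-likelihood test). In the striatum, where 11 were tested, none passed. Sgk1 was at 159 ± 82.4 CPM in NT and 57.6 ± 12.2 CPM in R6/2 samples, a log2 difference of -1.50 ± 0.35 (adjusted p = 0.124), and with a term for runs it passed at -1.54 ± 0.28 (adjusted p = 0.00775). The Sgk1 call in the cortex was lost, at adjusted p of 0.0541 to 0.0940, without NT sample 2 or 4 or without R6/2 sample 1, 2 or 3. The GSK3 kinase gene Gsk3b was at 0.19 ± 0.21 (log2, SE) for cortex and -0.47 ± 0.42 for striatum, and Hif1a, the hypoxia regulator, at 0.05 ± 0.24 and 0.06 ± 0.22. Of 10 binding partners, 6 were tested in each region and none passed. Their median log2 difference was 0.10 for cortex and 0.08 for striatum, against 0.01 and -0.01 over all genes, and that of the kinases and regulators was -0.16 and -0.27.

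The classes of reads also differed among the members. Known isoforms held 46.2% of all Ndrg2 reads, against 83.1% for Ndrg1, 81.9% for Ndrg3 and 89.0% for Ndrg4, and isoforms with a new splice site held 28.9% of Ndrg2 reads, against 4.07%, 1.77% and 0.830%. Incomplete splice matches, reads that end inside a known isoform, made up 16.4% of Ndrg2 reads and 5.13% of Ndrg4 reads. Of the 432 Ndrg4 isoforms with reads in the counted classes, 277 had 1 read. Genomic reads made up 7.49% of Ndrg4 reads, and no read of Ndrg2 was of this class in any sample.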

How the data were processed

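RNA of 16 samples was sequenced as PacBio long reads. The authors deposited raw counts of reads per isoform, after mapping to mm10 (minimap2 2.17-r941 is named in the submitters' notes) and annotation with TALON, which sorts isoforms into 7 classes. Here gene counts were summed over known, ISM (incomplete splice match), NIC and NNC isoforms, and the genomic, antisense and intergenic classes were left out. Runs of 1 sample were summed. Genes kept by filterByExpr were tested with the edgeR 4.0.16 quasi-likelihood test (TMM scaling, R 4.3.3, limma 3.58.1) within each pair of groups, and isoform usage with diffSpliceDGE (Simes), both with Benjamini-Hochberg adjustment over all genes and a threshold of 0.05. CPM came from 1 TMM scaling over all samples, and SE from the fitted difference and its F statistic. The scripts were tested on simulated data. Shares have Wilson 95% intervals, which, like any floor of 3 counts, cover counting error only. Exact permutation tests were two-sided. Alternatives were DESeq2 1.42.0, other scalings and filters, other classes, single runs and each sample left out in turn. Figures and summaries used Python 3.11.15 with pandas 2.3.3, scipy 1.17.1 and matplotlib 3.10.9.

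The members, lists and tests were chosen with earlier results of these data known. Isoforms of at least 5% of a gene's complete reads in a group were named, with the 3 most alike genes per member and all listed genes that passed a test. Samples were grouped by the labels, which do not say whether samples of 1 number share an animal, and p-values measure the spread between these samples. Between genotypes, where same-numbered samples cannot share an animal, correlations of their deviations ran from -0.57 to 0.62. Between cortex and striatum, where they could, these were -0.23 to 0.23 in NT and -0.04 to 0.40 in R6/2 mice. There the same number was the best match for NT samples 2 and 3 and R6/2 samples 1, 2 and 3, and not for the others. Shared animals thus remain possible, and the main fits between regions did not use the numbers as pairs. Positions are from GENCODE M21, promoters from RefSeq (GRCm38.p6), in which Ndrg1 was not matched.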

Additional observations from a re-analysis of the deposited data

Results flagged for a closer look

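Of 76 groups of 4 samples checked, 3 held a sample far from the others by Dixon's criterion, and chance flags about 1 in 20 groups. Ndrg2 in R6/2 sample 4 of the cortex was at 908 CPM, against 691 to 710 CPM in the other R6/2 samples there, and was still below every NT sample. The share of the main Ndrg1 isoform ENSMUST00000005256 in NT sample 4 of the cortex was 95.5%, from 21 of 22 reads (Wilson 95% interval 78.2% to 99.2%), where the other samples had 100%. The share of the short Ndrg4 transcript ENSMUST00000161314 in NT sample 3 of the cortex was 27.6%, against 4.87% to 7.49% in the others, and this library was the smallest of the 16, with 252885 reads.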

How the results depend on the processing

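Alternative values were compared with the spread between replicates, or for the interaction with the standard error of the fit. Of 292 values for the members' levels, 287 moved by less than this and 5 by more. Of 531 values for isoform shares, 518 moved less, 12 more and 1 changed sign although its groups did not overlap. In all, 8 level values and 21 share values had the opposite sign to the reported one. With ISM reads added, the cortical share difference of Ndrg1 ENSMUST00000005256 was 0.528 percentage points, against -7.57. Ndrg2 passed in the cortex in 13 of 15 alternatives and in the striatum in 1 of 17. Counts of all genes called moved more, and the cause was not tested.

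Genes called between genotypes in the cortex (198) became 95 without ISM. In the striatum (39) they became 13 with upper-quartile scaling, 124 with DESeq2, 140 with no filter, 19 with at least 10 reads, 59 with genomic reads, 13 without ISM, 20 with first runs and 332 with the runs term. Between regions in NT mice (584) they became 1222 with no filter, 367 without ISM and 1615 with samples of 1 run, and in R6/2 mice (1034) 1590 with no filter and 1984 with samples of 1 run. The interaction (1) became 2 with DESeq2 or genomic reads and 0 in edgeR with at least 10 reads, without ISM or with first runs (221, 120 and 210 at an unadjusted p under 0.05).

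For isoform usage, the gene-level F test gave 28 in the cortex (11), 18 in the striatum (3), 21 in NT (10) and 69 in R6/2 mice (31). The striatum gave 0 with known isoforms only, with ISM added or with first runs (74, 166 and 106 at an unadjusted p under 0.05, edgeR) and 19 with the runs term, and the region contrast in R6/2 mice gave 174 with ISM added.

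With the replicate number as a block, edgeR called 0 genes in the striatum (634 at an unadjusted p under 0.05) and 310 between regions in NT mice, and isoform usage gave 7 in the cortex, 1 in the striatum, 1 in NT and 49 in R6/2 mice. The labels give only shared numbers, and not every pair deviated together.

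Leaving out each sample in turn gave 95 to 300 genes in the cortex, 3 to 38 in the striatum, 364 to 740 in NT and 632 to 1324 in R6/2 mice, and for isoform usage 3 to 16, 0 to 7, 0 to 12 and 13 to 40.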
